A study of Homo sapiens with 2 samples.

Results

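The genes of the histone deacetylases HDAC1 to HDAC10 were chosen by symbol, as class I (HDAC1, HDAC2, HDAC3 and HDAC8), class IIa (HDAC4, HDAC5, HDAC7 and HDAC9) and class IIb (HDAC6 and HDAC10), and all 10 were found among the 60711 genes listed. Of these, 8 had a mean of at least 1 over both libraries, and HDAC9 and HDAC10 stayed under it. The value of HDAC5 was known when the genes were chosen. Histone deacetylases remove acetyl groups from lysines of histones and of many other proteins, and the zinc-dependent enzymes are grouped by sequence. The class I enzymes are mostly nuclear and form the catalytic core of co-repressor complexes. The class IIa enzymes carry a long N-terminal region that binds MEF2 transcription factors, and they leave the nucleus bound to 14-3-3 proteins once kinases have phosphorylated them. The class IIb enzyme HDAC6 works largely on cytoplasmic proteins such as tubulin.

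The libraries came from A549, a line of human lung adenocarcinoma cells, harvested 48 h after transfection with control siRNA or with MILIP siRNA. MILIP, also called MAFG-AS1, is a long noncoding RNA that the study examined in relation to c-Myc and p53, and the comparison asks which mRNAs differ once it is silenced. There was 1 library per condition and 1 MILIP siRNA, so that loss of MILIP and other effects of that siRNA cannot be told apart, and no difference has a replicate check. The scaling of the values is not given in the sources used here. They were taken as CPM because their sums, 1016810 with control siRNA and 978499 with MILIP siRNA, lie near the total of CPM. The control sum is above that total, which plain CPM cannot exceed. The values therefore carry a further scale factor, which is not given and enters every ratio. Read numbers were inferred from the steps between the values, 0.0501 and 0.0503 a read, which gave 20300800 and 19460956 reads in all and 20 reads for the lowest value above 0. MILIP was at 29.5 (588 reads) with control siRNA and at 3.22 (64 reads) with MILIP siRNA. The epithelial and A549 markers KRT8, KRT18, AKR1B10, AKR1C1, ALDH1A1 and ALDH3A1 were all abundant, from 496 to 5237 with control siRNA and from 655 to 9750 with MILIP siRNA. All 6 had ratios above 0, with a median of 0.49, and ALDH1A1 and ALDH3A1 were at least 1.5-fold higher. By contrast, CD68, PECAM1, VWF, COL1A2, DES and ALB, which mark macrophages, endothelium, fibroblasts, muscle and liver, were listed at 0 in both libraries. The leukocyte markers PTPRC and CD3E, also on the list, had no value and could not be checked.

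The 4 class IIa genes encode related proteins, and the same stretch of their coding sequence is shown because the main difference lies within this class and its reads have to be assigned among relatives. The stretch is 90 bases of the longest protein-coding transcript of HDAC5 in GENCODE release 29 (GRCh38), with the best match without gaps in the other genes. It spans exons 15 and 16 of 27 in HDAC5 (chr17:44084670-44085105, − strand), exons 15 and 16 in HDAC4 (chr2:239102891-239108133, − strand), exons 14 and 15 in HDAC7 (chr12:47791701-47791954, − strand) and exons 14 and 15 in HDAC9 (chr7:18749055-18762162, + strand). Capitals mark bases that differ from HDAC5.
HDAC5: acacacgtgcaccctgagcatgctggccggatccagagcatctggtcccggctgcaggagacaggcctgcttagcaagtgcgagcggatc
HDAC4: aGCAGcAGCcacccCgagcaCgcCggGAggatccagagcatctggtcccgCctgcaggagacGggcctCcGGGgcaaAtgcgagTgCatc
HDAC7: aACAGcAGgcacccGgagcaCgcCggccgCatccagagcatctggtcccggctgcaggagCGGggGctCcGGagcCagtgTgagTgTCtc
HDAC9: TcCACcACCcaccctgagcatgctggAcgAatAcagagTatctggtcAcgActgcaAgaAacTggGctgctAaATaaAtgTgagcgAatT
HDAC4 shares 69 of the 90 bases with HDAC5, HDAC7 shares 68 and HDAC9 shares 66. The longest run that HDAC5 has in common with either HDAC4 or HDAC7 anywhere in the transcripts is 30 bases, and with HDAC9 it is 18 bases. The 30-base run shared with HDAC7 lies inside the stretch above, in exon 15 (chr17:44085046-44085075), and reads atccagagcatctggtcccggctgcaggag. The one shared with HDAC4 lies in exon 4 (chr17:44093674-44093703) and reads ctgcagcaggagctcctggcgctcaagcag. None of the 5277 words (overlapping stretches) of 50 bases in the HDAC5 transcript occurs in a transcript of another gene, and none of its exonic bases overlaps an exon of another gene.

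HDAC5 stood apart from the other members. The gene (ENSG00000108840, chr17:44076746-44123702, − strand; positions of all members are from GENCODE release 29, GRCh38) encodes a class IIa deacetylase that represses MEF2-dependent transcription. Its value was 12.97, from 259 reads, in the control and 47.9, from 952 reads, after MILIP siRNA. The latter was 3.69-fold the former, with 95% Clopper-Pearson limits of 3.21 to 4.25, which cover counting error only here and throughout. On the log2(value + 1) scale used for all counts below the ratio was 1.81, higher than in 99.5% of the 13521 genes that passed the same filter as the members. In these genes the median log2 ratio was −0.03, the 5th percentile −0.97 and the 95th percentile 0.86. As each library is RNA from a whole culture, a difference in a few cells and a smaller one in every cell cannot be told apart.

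Of the 8 members above the filter, 1 was at least 1.5-fold higher, HDAC5, and none was at least 1.5-fold lower. Among all genes above the filter, 11.1% were at least 1.5-fold higher and 13.8% at least 1.5-fold lower. HDAC5 was also the 1 member at least 2-fold higher, a difference that 3.48% of genes reached. The remaining 7 members had log2 ratios between −0.39 and 0.52. The median over the 8 members was 0.24, and without HDAC5 it was 0.21, beside the −0.03 of all genes. HDAC8 was the only member whose limits included equal values.

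**Figure D1:**
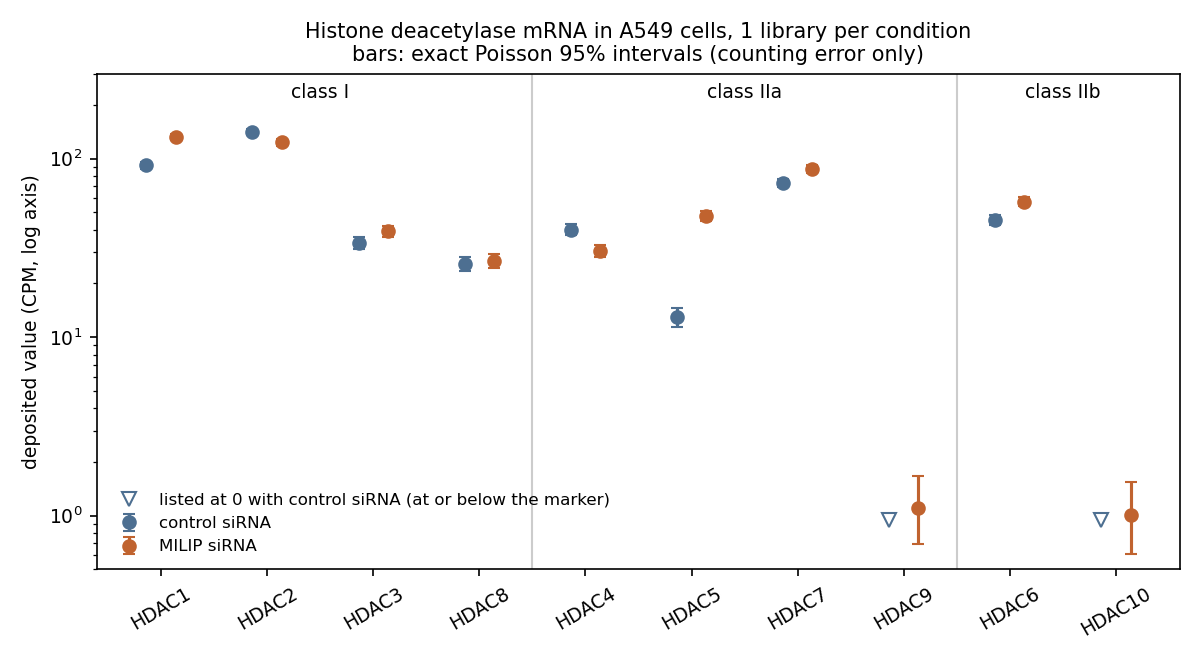
Deposited values (CPM, log axis) of the 10 histone deacetylases with control siRNA (blue) and MILIP siRNA (orange), 1 library each, with exact Poisson 95% intervals, and open triangles for genes listed at 0. HDAC5 goes from 12.97 to 47.9, while HDAC9 and HDAC10 are listed at 0 in the control and sit at 1.11 and 1.01 with MILIP siRNA.

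Among the class I genes, HDAC1 and HDAC2 were the most abundant members by reads. HDAC1 (ENSG00000116478, chr1:32292086-32333635, + strand), a core enzyme of the NuRD, SIN3 and CoREST complexes, stood at 92.1 in the control and at 132 after MILIP siRNA. This was 1.44-fold, with limits of 1.35 to 1.53 that reach past 1.5-fold, and a log2 ratio of 0.52. HDAC2 (ENSG00000196591, chr6:113933028-114011308, − strand), its close relative in the same complexes, was lower after MILIP siRNA, at 141 and 123, or 0.876 of the control (limits 0.829 to 0.925), although its direction turned once the GC trend described below was removed. The order of the 2 genes by reads differed between the libraries, since HDAC2 held 30.4% of the reads of all 10 members with control siRNA and 22.6% with MILIP siRNA, whereas HDAC1 held 19.9% and 24.2%. Only 9 of 2075 words of 50 bases in HDAC1 occur elsewhere, in the pseudogene HDAC1P2, and HDAC1 and HDAC2 share no run longer than 17 bases.

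HDAC3 (ENSG00000171720, chr5:141620876-141636870, − strand), the catalytic subunit of the NCoR and SMRT complexes, was at 33.8 in the control and 39.3 after MILIP siRNA, or 1.16-fold (limits 1.05 to 1.29). An antisense gene covers 9.20% of its exonic bases, and strand use in the counting is not given in the sources used here. HDAC8 (ENSG00000147099, chrX:72329516-72573199, − strand), which deacetylates the cohesin subunit SMC3, was at 25.7 and 26.7, or 1.04-fold (limits 0.920 to 1.18). For HDAC8, 18.4% of the words of 50 bases also occur in AL133500.1, a gene annotated on the same strand. Summed over the 4 genes, class I came to 292 with control siRNA and 322 with MILIP siRNA, or 1.10-fold.

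In class IIa the members differed in direction. HDAC4 (ENSG00000068024, chr2:239048168-239401654, − strand), which like HDAC5 shuttles between nucleus and cytoplasm, was at 40.1 (801 reads) in the control and at 30.4 (605 reads) after MILIP siRNA. This was 0.758 of the control (limits 0.681 to 0.844), and the log2 ratio of −0.39 was the lowest of the 8 members. HDAC7 (ENSG00000061273, chr12:47782722-47833132, − strand), best known from endothelium and thymocytes, was at 72.8 and 87.4, or 1.201-fold (limits 1.12 to 1.29), and the antisense gene AC004466.1 covers 9.70% of its exonic bases. HDAC9 (ENSG00000048052, chr7:18086949-19002416, + strand), itself a MEF2 target in muscle, was at 0 in the control and at 1.11 (22 reads) after MILIP siRNA. A listed 0 can stand for up to 19 reads, so that no fold is given for HDAC9.

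Class IIa reads were therefore divided differently in the 2 libraries. HDAC5 held 10.3% of 2514 class IIa reads with control siRNA (exact 95% interval 9.14% to 11.6%) and 28.7% of 3318 with MILIP siRNA (27.2% to 30.3%). HDAC4 held 31.9% and 18.2%, and HDAC7 57.8% and 52.4%. HDAC5 was thus the smallest of the 3 measurable class IIa genes in one library and the second largest in the other. The class IIa sum was 126 and 167, a difference of 40.9, of which HDAC5 alone made 34.9. Without HDAC5 the class was at 113 and 119, with limits on the log2 ratio of −0.01 to 0.16.

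**Figure D2:**
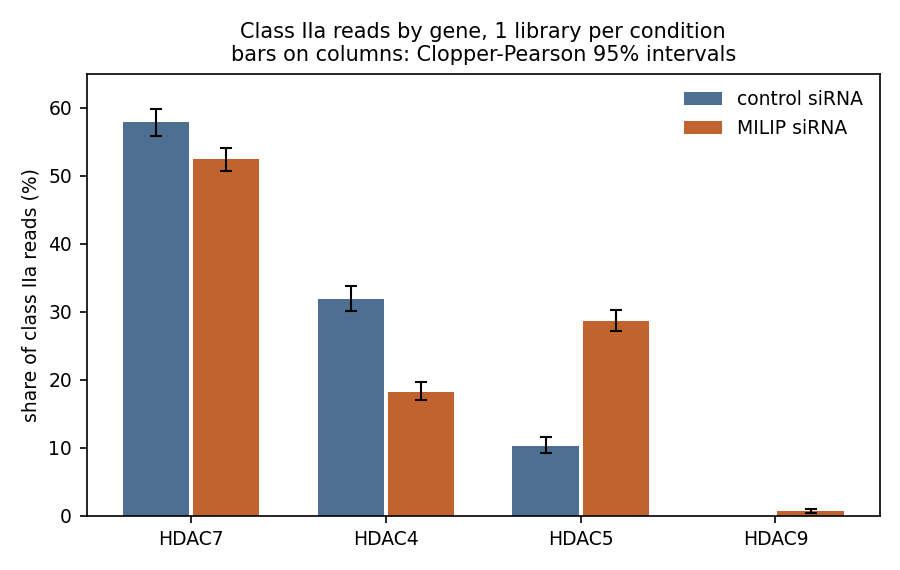
Share of class IIa reads (%) held by each gene with control siRNA (blue) and MILIP siRNA (orange), 1 library each, with Clopper-Pearson 95% intervals. HDAC5 holds 10.3% and 28.7%, and HDAC4 holds 31.9% and 18.2%; HDAC9 is listed at 0 in the control and has no interval there.

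Of the class IIb genes, HDAC6 (ENSG00000094631, chrX:48801377-48824982, + strand), the deacetylase of tubulin and cortactin, was at 45.3 in the control and 57.4 after MILIP siRNA, or 1.27-fold (limits 1.16 to 1.38). HDAC10 (ENSG00000100429, chr22:50245183-50251405, − strand), a polyamine deacetylase, was listed at 0 and at 1.01, the latter from 20 reads. The annotation places 55.8% of the exonic bases of HDAC10 inside exons of MAPK12 on the same strand, and 77.6% of its words of 50 bases occur in MAPK12 transcripts. MAPK12, a p38 kinase gene, had values of 44.6 and 32.1, a log2 ratio of −0.46. How reads in shared exons were treated is not given in the sources used here, and the low value of HDAC10 is uncertain for that reason.

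**Figure D3:**
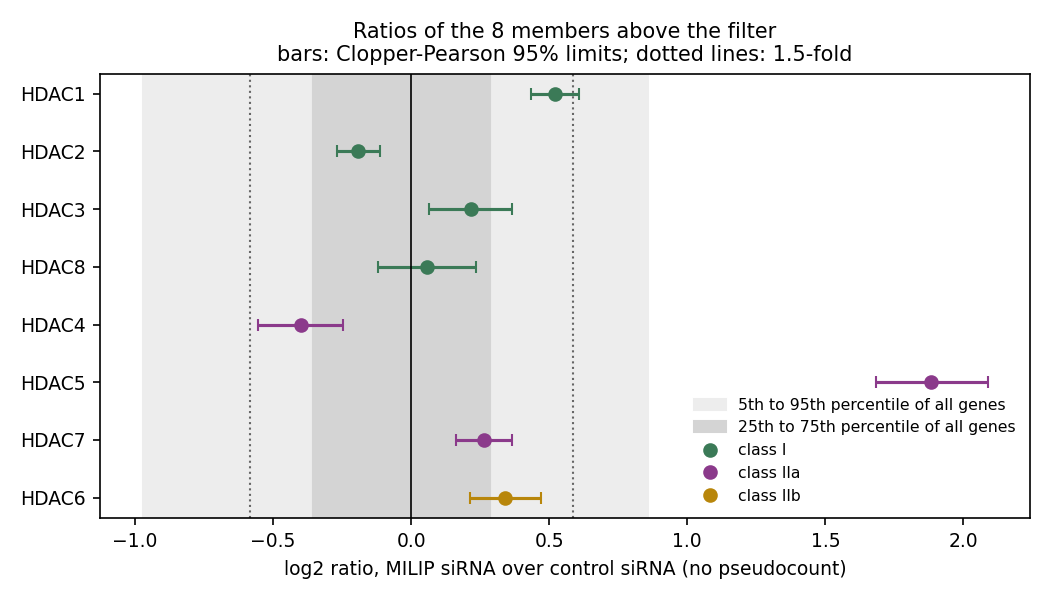
Log2 ratios (MILIP siRNA over control) without a pseudocount for the 8 members above the filter, coloured by class, with Clopper-Pearson 95% limits; grey bands give the percentiles of all genes, computed from values + 1, and dotted lines mark 1.5-fold. HDAC5 lies to the right of the 95th percentile at 0.86, and the other members lie within the 5th to 95th percentile band.

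Levels of different genes were compared as CPM per kilobase of the longest protein-coding transcript, which depends on the transcript in use. With control siRNA the order was HDAC1 at 43.4 CPM per kilobase, HDAC7 at 17.8, HDAC3 at 17.3, HDAC2 at 14.3, HDAC6 at 10.8, HDAC8 at 4.52, HDAC4 at 4.46 and HDAC5 at 2.44. The counting intervals of HDAC7 and HDAC3 overlapped, as did those of HDAC8 and HDAC4, and HDAC5 was last of the 8, with an interval of 2.15 to 2.75 that overlapped no other. With MILIP siRNA the order was HDAC1 at 62.3, HDAC7 at 21.4, HDAC3 at 20.05, HDAC6 at 13.7, HDAC2 at 12.5, HDAC5 at 8.99, HDAC8 at 4.70 and HDAC4 at 3.38. Here the intervals of HDAC7 and HDAC3 overlapped, as did those of HDAC6 and HDAC2, so that the order of HDAC6 and HDAC2 in this library is not firm. HDAC5 stood sixth in this library, above HDAC8 and HDAC4 and below HDAC2. Summed over the 10 members, the deposited values were 464 with control siRNA and 547 with MILIP siRNA, or 1.18-fold, and 1.11-fold without HDAC5.

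The genes around HDAC5 on chromosome 17, chosen by position after the values were seen, all had log2 ratios within 1.5-fold on the log2(value + 1) scale. G6PC3, which ends 0.402 kb from HDAC5, was at 82.5 in the control and 99.0 after MILIP siRNA (log2 ratio 0.26). LSM12 was at 151 and 114 (log2 ratio −0.40), and TMEM101 at 38.7 and 43.2 (0.15). On the other side HROB was at 14.1 and 13.1 (−0.10), ASB16 at 1.00 and 1.56 (0.35) and ASB16-AS1 at 6.31 and 6.23 (−0.02). These were the nearest 3 genes above the filter on each side, and ASB16, with 20 and 31 reads, is within 1.5-fold only through the pseudocount of 1.

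Over the 2 libraries, the 5 genes with values nearest to those of HDAC5 (Euclidean distance of log2(value + 1)) were SAMD11, AQP3, IFT27, ASS1 and CEBPD, at distances of 0.08 to 0.35. SAMD11 was at 12.97 and 45.2, and ASS1, which encodes argininosuccinate synthase, at 11.1 and 48.9. With 2 libraries, this likeness says no more than that both values are close.

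Log2 ratios across all genes moved with the GC content of the longest transcript, from a median of −0.24 in the lowest of 50 bins to 0.25 in the highest. The HDAC5 transcript has 61.2% GC, and the 268 genes in its bin (60.9% to 61.6% GC) had a median log2 ratio of 0.20, among which HDAC5 had rank 5 from the top. With the bin medians subtracted, HDAC5 was at 1.61. HDAC1 was at 0.62 on this scale and so passed 1.5-fold, and HDAC2, from a transcript of 38.2% GC, turned from −0.19 to 0.05. HDAC6 went from 0.33 to 0.20 and HDAC7 from 0.26 to 0.13. HDAC8, from a transcript of 40.8% GC, went from 0.06 to 0.23, a shift within the reach of its wide counting limits. HDAC3 went from 0.21 to 0.18 and HDAC4 from −0.39 to −0.45. The part of GC content in the differences of HDAC1, HDAC2, HDAC6, HDAC7 and HDAC8 was not tested further.

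Among related deacetylases of other classes, HDAC11 and the 7 sirtuins, 1 of 8 genes was at least 1.5-fold higher and none at least 1.5-fold lower, with a median log2 ratio of −0.02. The exception was SIRT2, a mainly cytoplasmic deacetylase that acts on tubulin as HDAC6 does, with 33.2 with control siRNA and 65.2 with MILIP siRNA (1.97-fold). SIRT1, which deacetylates p53, was at 66.6 and 48.7 (log2 ratio −0.44), and SIRT6, a chromatin-bound sirtuin, at 32.7 and 22.3 (−0.53). HDAC11, the single class IV enzyme, was at 15.1 and 15.5 (0.04). SIRT3, SIRT4, SIRT5 and SIRT7 had log2 ratios from −0.19 to 0.17. For this list and each list below, the shares over all genes are 11.1% at least 1.5-fold higher and 13.8% at least 1.5-fold lower.

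Subunits of the complexes that hold the class I enzymes had log2 ratios from −2.39 to 0.83. Over the NuRD, SIN3, CoREST, and NCoR and SMRT lists, 43 of 43 subunits passed the filter, and 4 were at least 1.5-fold higher and 9 at least 1.5-fold lower, beside the 11.1% and 13.8% of all genes. In NuRD, the methyl-CpG reader MBD2 had the lowest log2 ratio, at 55.8 in the control and 9.80 after MILIP siRNA (−2.39), followed by the ATPase CHD4, at 226 and 123 (−0.87). CHD3 was at 240.3 and 358 (0.57) and CDK2AP1 at 40.3 and 49.4 (0.29). In all, 3 of 13 NuRD subunits were at least 1.5-fold lower and none at least 1.5-fold higher, with a median of −0.01.

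In the SIN3 complex 4 of 15 subunits were at least 1.5-fold lower and none at least 1.5-fold higher, with a median of −0.08. SINHCAF was at 129 in the control and 29.4 after MILIP siRNA (−2.10), and SUDS3 at 70.1 and 28.8 (−1.25). ARID4A was at 19.6 and 29.8 (0.58) and PHF12 at 52.5 and 62.0 (0.24). ARID4A, at 1.52-fold without the pseudocount, is within 1.5-fold only through the pseudocount. SIN3A and SIN3B, the scaffolds, were within 1.5-fold, at −0.08 and −0.10.

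In CoREST, 3 of 9 subunits were at least 1.5-fold higher and 1 at least 1.5-fold lower, with a median of −0.23. HMG20B, which encodes an HMG-box subunit, was at 32.9 in the control and 59.2 after MILIP siRNA (0.83). PHF21A was at 27.6 and 46.9 (0.74) and the scaffold RCOR1 at 78.3 and 56.9 (−0.46). Of the 6 NCoR and SMRT subunits, 1 was higher and 1 lower by at least 1.5-fold, with a median of 0.04. These were TBL1X, at 48.1 and 75.5 (0.64), and the scaffold NCOR1, at 211 and 125 (−0.76). TBL1XR1 was at 99.8 and 75.2 (−0.40) and CORO2A at 2.10 and 3.47 (0.53). Without the pseudocount CORO2A was at 1.65-fold, so that it is within 1.5-fold only through the pseudocount.

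Of the 2 MEF2 factors above the filter, the partners of the class IIa enzymes, 1 was at least 1.5-fold lower and 1 stayed within 1.5-fold. MEF2A, a MEF2 factor present in most cell types, was at 50.6 in the control and 29.3 after MILIP siRNA (log2 ratio −0.77), and MEF2D at 90.9 and 84.4 (−0.11). MEF2B and MEF2C were listed at 0 in both libraries. Of the 8 genes listed as MEF2-regulated, 7 passed the filter, all 7 had ratios above 0, as did 47.8% of all genes, and 3 were at least 1.5-fold higher, beside 11.1% of all genes, with a median of 0.53. All of these 7 encode transcription factors, and the counting limits of KLF2 included equal values.

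The 3 MEF2-listed genes past 1.5-fold were NR4A3, at 2.35 in the control and 5.78 after MILIP siRNA (1.02), NR4A2, at 4.61 and 8.85 (0.81), and KLF4, at 11.2 and 18.7 (0.69). NR4A1 was at 35.2 and 51.2 (0.53) and JUN at 76.4 and 108 (0.49). KLF2 was at 5.81 and 7.04 (0.24), and KLF6 at 72.4 and 80.6 (0.15). PPARGC1A was listed at 0 in both libraries.

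Of the 14-3-3 genes, which hold phosphorylated class IIa enzymes in the cytoplasm, 1 of 7 was at least 1.5-fold lower and none at least 1.5-fold higher, with a median of −0.06. This was YWHAQ, at 1030.5 in the control and 638 after MILIP siRNA (−0.69), while YWHAH had the highest ratio, at 116 and 138 (0.25). SFN was at 154 and 116 (−0.41) and YWHAG at 553 and 556 (0.01). Of the 16 kinases listed for class IIa enzymes, 14 passed the filter, 1 was at least 1.5-fold higher and none at least 1.5-fold lower, with a median of −0.23. CAMK1D was at 25.3 and 44.6 (0.79) and PRKD2, a protein kinase D gene, at 41.8 and 61.9 (0.56). CAMK2G was at 46.5 and 34.1 (−0.44) and SIK2 at 32.8 and 24.3 (−0.42).

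Among substrates and partners of HDAC6, 1 of 10 genes was at least 1.5-fold higher and 1 at least 1.5-fold lower, with a median of −0.06. CTTN, which encodes cortactin, was at 283 in the control and 480.0 after MILIP siRNA (0.76), and the tubulin gene TUBA1B at 208 and 134 (−0.62). TUBA1A was at 132 and 196 (0.57) and the chaperone HSP90AA1 at 2561 and 1899 (−0.43). The sequence that the tubulin genes share was not examined. How reads that match several of them were treated is not given in the sources used here, so that their values are uncertain for that reason.

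The opposing enzymes, the histone acetyltransferases, had 3 of 13 genes at least 1.5-fold lower and none at least 1.5-fold higher. The shares over all genes were 13.8% and 11.1%. The median of the list was −0.11. KAT6B was at 35.5 in the control and 16.6 after MILIP siRNA (−1.05), and EP300, which encodes p300, at 87.3 and 56.8 (−0.61). KAT2A was at 82.3 and 93.9 (0.19) and KAT5 at 23.8 and 27.2 (0.18). Of 7 genes known to be higher in cells treated with deacetylase inhibitors, 1 was at least 1.5-fold higher and none at least 1.5-fold lower, with a median of 0.25. TXNIP was at 3.41 and 5.98 (0.66) and CLU at 345 and 517 (0.58), whereas DHRS2 was at 8.92 and 7.74 (−0.18).

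Promoter windows from RefSeq (GRCh38.p14, 250 bases before to 50 after a gene start) were matched for 9 of the 10 members, 19 windows in all, the exception being HDAC5. They were searched on both strands for CACGTG, the E-box that c-Myc and Max bind, since the study concerns c-Myc, and for TATTTTTA, the core letters of a MEF2 site. The E-box occurs in 7.26% of the 35116 windows of all genes and in 1 of the 19 member windows. The member share is not above that of all genes. This E-box lies in a window of HDAC4, whose other windows hold none. The window (chr2:239401600-239401899, − strand) has 76.3% GC, and the E-box is in capitals.
HDAC4: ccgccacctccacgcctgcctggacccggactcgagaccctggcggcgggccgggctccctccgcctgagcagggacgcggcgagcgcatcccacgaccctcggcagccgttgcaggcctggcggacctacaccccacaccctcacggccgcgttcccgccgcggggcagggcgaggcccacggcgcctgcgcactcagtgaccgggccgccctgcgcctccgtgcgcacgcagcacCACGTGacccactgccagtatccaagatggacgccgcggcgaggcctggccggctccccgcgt
The MEF2 core occurs in 2.28% of all windows and in 3 windows of HDAC9. Of these, 2 overlap each other and hold the same match, which is thus counted in both. The HDAC9 window furthest upstream (chr7:18086575-18086874, + strand) is shown with the core in capitals.
HDAC9: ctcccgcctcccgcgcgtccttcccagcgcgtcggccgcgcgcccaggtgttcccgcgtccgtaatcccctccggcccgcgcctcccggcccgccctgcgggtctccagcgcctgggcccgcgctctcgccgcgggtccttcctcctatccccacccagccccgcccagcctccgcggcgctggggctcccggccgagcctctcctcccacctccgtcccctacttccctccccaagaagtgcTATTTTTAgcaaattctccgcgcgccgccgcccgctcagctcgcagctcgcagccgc
The GC box GGGCGG occurs in 45.0% of all windows and in 8 of the 19. These are matches of letters only, and binding of c-Myc or MEF2 to these windows was not measured in these libraries.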

How the data were processed

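The authors deposited 1 table of 60711 genes with 1 value per gene and library, taken here as CPM. The processing notes name TopHat2 2.0.12, HTSeq 0.6.1 and hg38, whereas the scaling is not given in the sources used here. The value columns are headed as read counts, but 100% of the values up to 10000 reads were whole multiples of a library's step, to within 0.05 of a read. Columns with the authors' log2 fold change, p-value and q-value were deposited too, and were not used. Values were present for 27856 genes. Log2 ratios were taken with a pseudocount of 1, which draws low genes toward 0, over 13521 genes with a mean of at least 1, and a difference of 1.5-fold was the fixed rule of size. Replicates being absent, no p-value was computed, and limits on ratios and shares are exact binomial. Symbols matched for 13365 of these genes.

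All members, HDAC11, the sirtuins, MILIP, the MEF2 lists, the 2 highest and lowest ratios of each other list and the 5 genes nearest to HDAC5 were named by rule; MAPK12, SIN3A, SIN3B and the genes around HDAC5 were chosen afterwards. Of the genes that the rule names, 2 are not reported here. Members and lists were chosen with earlier results of these data known. Alternatives were no filter, a minimum mean of 5, 2-fold, a pseudocount of 0.1, median-of-ratios scaling, removal of the GC trend and other denominators for shares. Calculations were tested on simulated data. Scipy 1.17.1, pandas 2.3.3 and numpy 2.4.6 were run under Python 3.11.15, with plots by matplotlib 3.10.9.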

Additional observations from a re-analysis of the deposited data

How the results depend on the processing

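No paired analysis was possible because there was 1 library on each side, which also means that none could be left out. The log2 ratio of HDAC5 was 1.61 to 1.88 with median-of-ratios scaling, removal of the GC trend or a pseudocount of 0.1. The number of members at least 1.5-fold higher was 3 without the filter, by the addition of HDAC9 and HDAC10, whose ratios rest on the pseudocount. With the GC trend removed it was 2, by HDAC1. Over all genes, 2014 were at least 1.5-fold higher without the filter and 1467 with the GC trend removed. At 2-fold the number of members higher was 1, with 471 genes higher and 625 lower in all. The share of class IIa reads held by HDAC5 was 13.3% with control siRNA and 34.4% with MILIP siRNA per kilobase of the longest transcript, and 26.6% with MILIP siRNA per kilobase of the longest protein-coding transcript; among all 10 members it was 2.80% and 8.75%. Of 24 recomputed log2 ratios of members, 20 moved by less than the reach of their counting limits to either side; the 4 others are HDAC1, HDAC2, HDAC6 and HDAC7 with the GC trend removed. Of 60 recomputed list medians, 8 moved by 0.1 or more, and 7 of these were with the GC trend removed. The median of the NCoR and SMRT list turned to −0.16 at a minimum mean of 5 and to −0.10 without the GC trend, and that of the 14-3-3 list to 0.05 without the GC trend. Without that trend the medians were also −0.03 for CoREST, −0.06 for the class IIa kinases, 0.05 for the genes higher with inhibitors, −0.15 for HDAC11 and the sirtuins and −0.19 for the HDAC6 list. This trend for counts and medians, the protein-coding length and a listed 0 taken as 19 reads were added with the values in view, that is, chosen after seeing the data.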
